A study of Mus musculus with 15 samples.

Results

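Transporters that carry amino acids and related solutes across the membranes of mouse liver cells were examined through the mRNA of 7 gene families, Slc1, Slc3, Slc6, Slc7, Slc36, Slc38 and Slc43. Members were taken by symbol alone, as every gene named with 1 of these family prefixes, the letter a and a number. This gave 61 of the 24493 genes in the deposited table. The rule uses no measured value, but the families were chosen with earlier results of these data known. RNA was sequenced in 15 libraries of cells sorted directly from liver, 3 libraries in each of 5 groups. The groups were reprogrammed cells, biliary epithelial cells and hepatocytes of mice given DDC, and biliary epithelial cells and hepatocytes of untreated mice. DDC is a porphyrin-raising compound that, mixed into chow, damages bile ducts and the hepatocytes around them. Every mouse, untreated ones included, had been injected when 4 weeks old with AAV-TBG-Cre, a viral vector whose TBG promoter is active in hepatocytes and drives Cre recombinase there. DDC mice were put on the diet at 5 weeks of age and stayed on it for 4 weeks until their livers were taken. The age of the untreated mice at harvest, the strain, any reporter allele and the surface proteins used for sorting were not given in the sources used here. Reprogrammed cells is the study's name for a cell type of the DDC liver. As background, hepatocytes in DDC injury are known to take on biliary features.

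Amino acid carriers differ in the ions they use and in the side chains they accept. Hepatocytes take up glutamine, alanine and cationic amino acids from portal blood for urea and glucose synthesis, and sodium-coupled Slc38 carriers do much of this work. Slc7 light chains exchange large, cationic or cystine-type amino acids and mostly need a heavy chain, Slc3a1 or Slc3a2, to reach the membrane. Slc6 carriers move taurine, betaine, creatine, glycine and neurotransmitters, Slc1 carriers move glutamate and small neutral amino acids, Slc36 carriers are proton-coupled, and Slc43 carriers let large neutral amino acids pass by facilitated diffusion. Bile duct cells face bile as well as blood and reabsorb amino acids released from glutathione.

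Values are TPM, which count transcripts per length and so allow levels to be compared between genes, divided by 1 scale factor per library (0.55 to 1.62) and called scaled TPM here. Read totals cannot be had from TPM, and sequencing depth is therefore unknown. Differences are on the log2(scaled TPM + 1) scale, which understates the change of genes at low levels. A gene was called where the Benjamini-Hochberg adjusted p of limma over 13905 genes was under 0.05 and the log2 difference was at least 1 in size. Nothing in the labels says that libraries of a group came from separate animals, so the p-values measure the spread between these libraries, which may be technical. The scale factors matter: in the unscaled TPM the median of all genes stood 1.11 higher on the log2 scale in untreated biliary cells than in untreated hepatocytes. The same shift was 1.06 for DDC biliary cells and 0.71 for reprogrammed cells, each against DDC hepatocytes, -0.34 for reprogrammed against DDC biliary cells and 0.17 for DDC against untreated hepatocytes. All differences below are relative to that shift.

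The labelled cell types were checked against 10 markers of each. The summed biliary markers reached 4534 to 10870 scaled TPM in reprogrammed cells, 8090 to 13120 in DDC biliary cells and 289 to 610 in DDC hepatocytes, against 10720 to 12390 in biliary cells and 20.7 to 26.6 in hepatocytes of untreated mice. Krt7, Cftr, Sctr and Cldn7 were listed at 0 in every untreated hepatocyte library. The summed hepatocyte markers were 27720 to 84830 scaled TPM in reprogrammed cells, 14900 to 33520 in DDC biliary cells, 86010 to 170300 in DDC hepatocytes, 33280 to 43000 in biliary cells and 164900 to 187600 in hepatocytes of untreated mice. Alb weighed heavily in these, averaging 34192 scaled TPM in reprogrammed cells, 14209 in DDC biliary cells and 89157 in DDC hepatocytes. Hepatocyte transcripts were thus measured in every biliary and reprogrammed library, and their part in the levels of hepatocyte-type transporters there was not tested. In bulk RNA, fewer cells of a type and less RNA per cell cannot be told apart. Lymphocyte markers were below 2 scaled TPM in sum in every library. Stellate and fibroblast markers summed to up to 90.9 and endothelial markers to up to 27 in DDC biliary cells. Erythroid markers reached 117 to 142 in untreated hepatocytes, where Alas2 alone averaged 121. Against hepatocytes, 4 of 9 stellate and fibroblast markers were called higher in DDC and 3 in untreated biliary cells, beside 20.3% and 21.6% of all genes. The part of such cells in the member levels was not tested.

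Of the 61 members, 31 reached 1 TPM in at least 3 libraries and were tested, 26 stayed below 1 TPM in all 15 libraries and are read as low, and 4 (Slc1a7, Slc7a3, Slc7a8 and Slc7a14) exceeded 1 TPM in 1 or 2 libraries. The families differed in this respect. All 3 Slc43 and both Slc3 members passed the filter, as did 8 of 11 Slc38 members, 7 of 15 Slc7 members, 4 of 7 Slc1 members and 2 of 4 Slc36 members. In the Slc6 family 5 of 19 members passed and 14 stayed below 1 TPM. These low Slc6 genes included the GABA transporter Slc6a11, the noradrenaline, dopamine and serotonin transporters Slc6a2, Slc6a3 and Slc6a4, the neuronal glycine transporter Slc6a5, the proline transporter Slc6a7 and the neutral amino acid carrier of gut and kidney, Slc6a19. Slc6a14, Slc6a15, Slc6a16, Slc6a17, Slc6a18 and Slc6a21 were below 1 TPM as well, and Slc6a18 was above 0 in every library and reached 0.851 TPM. Outside that family the members below 1 TPM were the glutamate carriers Slc1a3 and Slc1a6, Slc7a9, Slc7a10, Slc7a12, Slc7a13, Slc7a15, Slc36a2, Slc36a3, Slc38a5, Slc38a8 and Slc38a11. Slc7a9 and Slc7a13 are the light chains known to pair with the heavy chain Slc3a1, so Slc3a1 was measured here with neither partner above 1 TPM.

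Summed over the 61 members, the scaled TPM averaged 1252 ± 403 in reprogrammed cells, 899 ± 125 in DDC biliary cells and 2327 ± 529 in DDC hepatocytes, against 902 ± 91.9 in biliary cells and 2815 ± 140 in hepatocytes of untreated mice (SD, n = 3 each). Without scaling, the sums averaged 1473 ± 273, 1338 ± 107 and 1601 ± 293 TPM in these DDC groups. They averaged 1254 ± 60.7 in biliary cells and 1620 ± 36.6 in hepatocytes of untreated mice. Much of the gap between cell types in the scaled sum thus came from the scale factors. Within this sum the mix of carriers differed between cell types, and shares within a library do not depend on the scale factors. The Slc38 family made up 53.7 ± 7.4% of the summed member TPM in reprogrammed cells, 41.9 ± 6.0% in DDC biliary cells and 65.1 ± 3.6% in DDC hepatocytes, against 59.8 ± 0.44% in biliary cells and 71.6 ± 1.6% in hepatocytes of untreated mice. Slc38a3 and Slc38a4 together held 22.2% to 37.3% of the sum in DDC biliary libraries, which lay below the 53.4% to 62.6% of DDC hepatocyte libraries without overlap. The Slc43 share was 5.47 ± 3.4% in reprogrammed cells, 10.96 ± 3.9% in DDC biliary cells and 0.579 ± 0.12% in DDC hepatocytes, against 4.93 ± 0.58% in biliary cells and 0.289 ± 0.027% in hepatocytes of untreated mice. The Slc6 share was 23.8 ± 2.1% in reprogrammed cells, 28.5 ± 2.6% in DDC biliary cells and 19.3 ± 0.17% in DDC hepatocytes, against 19.0 ± 0.41% in biliary cells and 14.4 ± 0.64% in hepatocytes of untreated mice (SD, n = 3 libraries in each group).

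**Figure D1:**
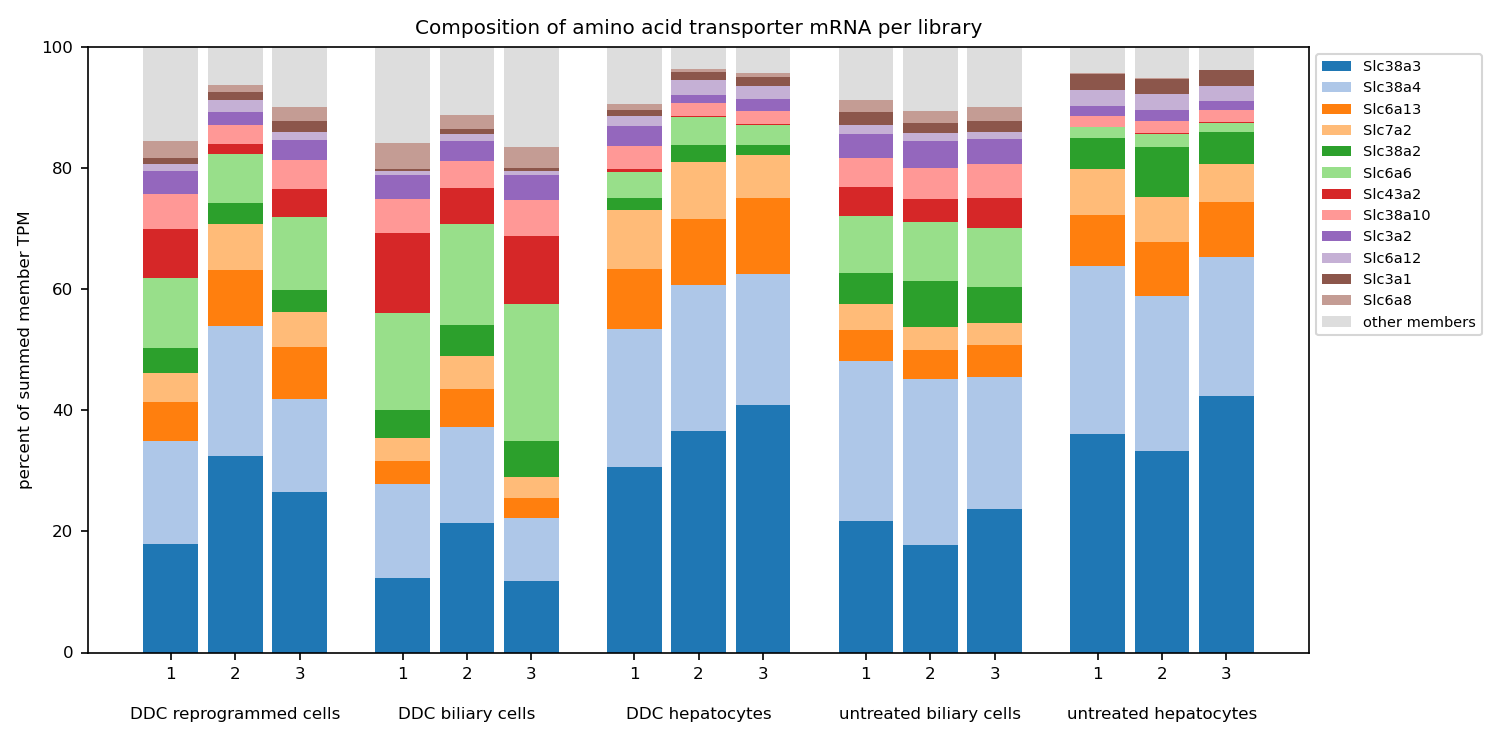
Stacked bars show the percent of the summed TPM of the 61 members held by 12 transporters and by all others (y axis, percent) in each of the 15 libraries (x axis, libraries 1 to 3 of each group). Slc38a3 and Slc38a4 (blue) fill 53.4% to 65.3% of the hepatocyte bars and 22.2% to 37.3% of the DDC biliary bars, while Slc6a6 (light green) and Slc43a2 (red) widen in the biliary bars.

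The order of the levels differed accordingly. Slc38a3 ranked first in reprogrammed cells, DDC hepatocytes and untreated hepatocytes, Slc6a6 ranked first in DDC biliary cells and Slc38a4 in untreated biliary cells. These first places were not always clear: Slc38a3 overlapped the runner-up Slc38a4 across libraries of reprogrammed cells and DDC hepatocytes, Slc6a6 overlapped Slc38a3 in DDC biliary cells, and Slc38a4 overlapped Slc38a3 in untreated biliary cells. In untreated hepatocytes the lowest Slc38a3 library (885 scaled TPM) stood above the highest Slc38a4 library (807).

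Promoter windows were available from RefSeq (GRCm38.p6) for 43 of the 61 members and for 22 of the 31 tested, each reaching from 250 bases before the start of transcription to 50 after it. A set of 5 is shown for members that the results turn on: Slc43a2, Slc7a1 and Slc7a7, which were high in biliary cells, Slc6a13, which was high in hepatocytes, and Slc7a11, which was high in 1 library. Capitals mark matches, on either strand, to TGATGNAA, the core of the element read by the amino acid stress factor ATF4, or to TGACNNNGC, the core of the antioxidant element read by NRF2, which also fits some AP-1 sites. The windows lie at chr11:75531444-75531743 (plus strand, Slc43a2), chr5:148399855-148400154 (minus strand, Slc7a1), chr14:54417895-54418194 (minus strand, Slc7a7), chr6:121300038-121300337 (plus strand, Slc6a13) and chr3:50443564-50443863 (minus strand, Slc7a11), and each is written 5′ to 3′ on the strand of its gene.
Slc43a2: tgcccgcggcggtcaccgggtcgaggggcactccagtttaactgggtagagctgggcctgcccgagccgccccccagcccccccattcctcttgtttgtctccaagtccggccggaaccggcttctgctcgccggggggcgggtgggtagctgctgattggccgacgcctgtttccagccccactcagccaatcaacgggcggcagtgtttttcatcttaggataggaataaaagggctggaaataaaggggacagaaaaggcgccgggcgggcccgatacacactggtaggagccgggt
Slc7a1: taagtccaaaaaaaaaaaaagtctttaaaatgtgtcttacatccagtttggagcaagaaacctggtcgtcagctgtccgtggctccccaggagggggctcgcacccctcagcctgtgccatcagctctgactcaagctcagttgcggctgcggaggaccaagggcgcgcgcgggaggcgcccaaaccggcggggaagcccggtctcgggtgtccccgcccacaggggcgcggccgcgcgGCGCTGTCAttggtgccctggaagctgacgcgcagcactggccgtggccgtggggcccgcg
Slc7a7: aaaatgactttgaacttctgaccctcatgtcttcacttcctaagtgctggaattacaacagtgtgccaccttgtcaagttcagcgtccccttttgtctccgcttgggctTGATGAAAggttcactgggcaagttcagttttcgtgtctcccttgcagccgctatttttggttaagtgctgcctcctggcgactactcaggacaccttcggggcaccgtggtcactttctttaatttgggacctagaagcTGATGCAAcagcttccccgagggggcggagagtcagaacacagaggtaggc
Slc6a13: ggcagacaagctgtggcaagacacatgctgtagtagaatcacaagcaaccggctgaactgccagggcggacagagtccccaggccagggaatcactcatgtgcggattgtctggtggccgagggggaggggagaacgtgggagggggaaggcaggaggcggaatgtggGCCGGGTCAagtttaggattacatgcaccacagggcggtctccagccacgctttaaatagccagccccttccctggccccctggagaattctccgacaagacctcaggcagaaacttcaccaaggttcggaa
Slc7a11: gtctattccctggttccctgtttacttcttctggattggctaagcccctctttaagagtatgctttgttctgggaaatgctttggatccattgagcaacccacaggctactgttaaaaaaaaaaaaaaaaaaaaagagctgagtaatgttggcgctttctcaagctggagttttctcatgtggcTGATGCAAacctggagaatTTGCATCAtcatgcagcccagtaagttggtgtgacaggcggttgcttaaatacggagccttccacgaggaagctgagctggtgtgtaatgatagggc

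The Slc43a2 window holds neither motif. In Slc7a11, whose mouse promoter is known to answer to ATF4, the 2 TGATGNAA matches begin 66 and 47 bases before the start and lie on opposite strands. The Slc7a7 window holds the same motif at 141 bases and at 1 base before the start. A TGACNNNGC match begins 11 bases before the start in Slc7a1 and 82 bases before it in Slc6a13. TGATGNAA was found in 3 of the 22 tested members with a window (13.6%) and in 3.97% of all 32851 promoter windows, and TGACNNNGC in 7 of the 22 (31.8%) and in 12.4% of all windows. Counted by window, since several members have more than 1, the motifs were in 4 (10.3%) and 9 (23.1%) of the 39 windows of tested members. No match overlapped one of the other motif. These matches describe letters in the windows and say nothing of binding.

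Biliary cells and hepatocytes of untreated mice differed in most of these carriers. Of the 31 members tested, 8 were called higher in untreated biliary cells, against 21.6% of all genes, and 12 were called lower, against 15.6% of all genes. The higher group comprised the large neutral carrier Slc43a2, the Slc7 members Slc7a1, Slc7a4, Slc7a6 and Slc7a7, the creatine carrier Slc6a8, Slc43a3 and Slc1a5. The lower group comprised Slc38a2, Slc38a3, Slc38a4, Slc6a9, Slc6a12, Slc6a13, Slc1a2, Slc1a4, Slc7a2, Slc3a1, Slc36a1 and Slc43a1. The members' median log2 difference was -0.20, beside 0.12 for all genes. With the unscaled TPM 13 members were called higher and 4 lower, and the split over all genes was 7350 to 470 in place of 3010 to 2175. With quantile normalization 16 of these 20 calls remained. Slc1a5 and Slc43a3 turned to -0.10 and -0.04, and the abundant Slc38a4 (-0.44, adjusted p = 0.174) and Slc38a2 (-0.88, adjusted p = 0.00805) fell short of a call in that limma fit.

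In DDC livers the same comparison called 9 members higher in biliary cells, against 20.3% of all genes, and 10 lower, against 14.4% of all genes, with a members' median of -0.08 beside 0.15 for all genes. The unscaled TPM gave 15 higher and 6 lower, and over all genes 7142 to 645 in place of 2817 to 2002. With quantile normalization Slc1a5 (0.51), Slc7a4 (0.91) and Slc43a3 (0.41) fell under the size needed. DDC and untreated libraries are separate samples, so the calls can be set side by side. Of the members called higher, 7 were shared, which is 87.5% of the untreated and 77.8% of the DDC calls, beside 70.8% and 75.6% over all genes. Of those called lower, 9 were shared, which is 75% of the untreated and 90% of the DDC calls, beside 76% and 82.5% over all genes. No member was called in opposite directions. Slc7a5 and Slc38a1 were called higher under DDC and not in untreated cells, and Slc6a8 the other way round. Slc38a7 was called lower under DDC and not in untreated cells, and Slc38a2, Slc1a2 and Slc36a1 the other way round. The difference between the treatments was itself called, by the interaction term described further on, for Slc7a5, Slc6a8 and Slc38a2 and not for the other 4 of these.

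**Figure D2:**
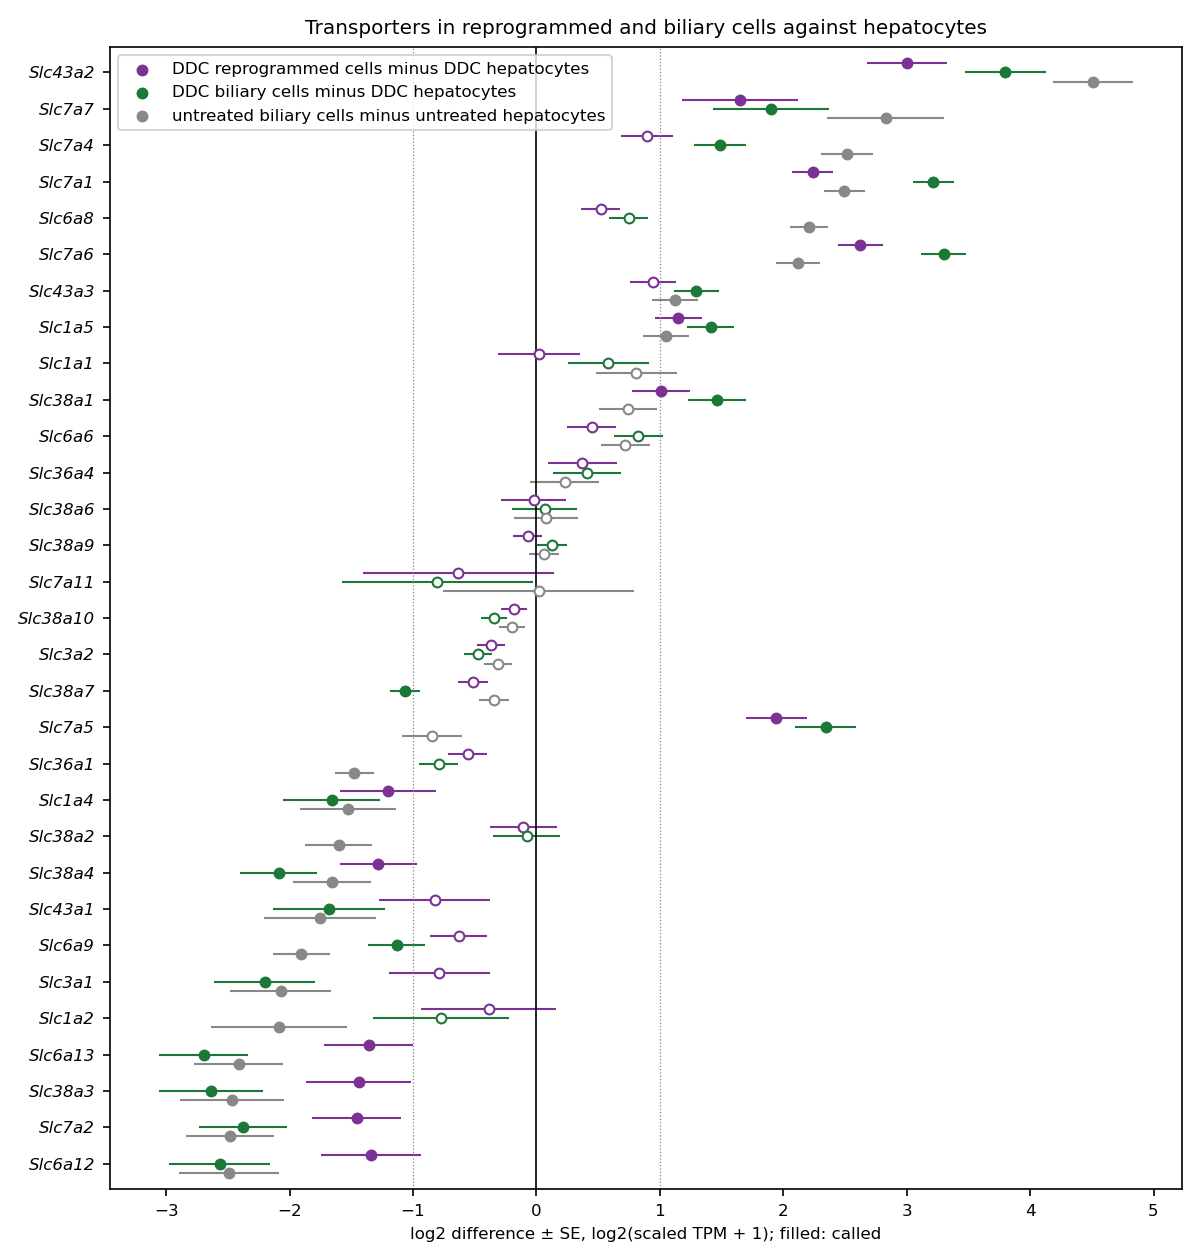
Points show the log2 difference (x axis, log2(scaled TPM + 1) scale) with its SE for each of the 31 tested members (y axis) between reprogrammed cells and DDC hepatocytes (purple), DDC biliary cells and DDC hepatocytes (green) and untreated biliary cells and untreated hepatocytes (grey), and filled points were called. Slc43a2 stands farthest right in the untreated comparison at 4.51, Slc6a12, Slc7a2, Slc38a3 and Slc6a13 stand farthest left, and Slc7a6 is listed at 0 in untreated hepatocytes, so its grey point depends on the added 1.

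Glutamine and small neutral amino acid carriers of the Slc38 family were the most abundant members. Slc38a3, a sodium-coupled and proton-coupled carrier of glutamine, asparagine and histidine that can run in both directions, had 160.3, 549 and 310.2 scaled TPM in reprogrammed cells, 102, 223 and 97.7 in biliary cells and 544, 1034 and 975 in hepatocytes of DDC mice, against 218, 145 and 209.9 in biliary cells and 1054, 885 and 1219 in hepatocytes of untreated mice. Every biliary library lay below every hepatocyte library of its treatment, while reprogrammed library 2 reached into the range of the DDC hepatocytes. The log2 difference was -2.47 ± 0.42 (SE; limma adjusted p = 0.000198) between untreated biliary cells and hepatocytes, -2.64 ± 0.42 (SE; limma adjusted p = 0.000127) between the 2 cell types under DDC and -1.44 ± 0.42 (SE; limma adjusted p = 0.0139) between reprogrammed cells and DDC hepatocytes. Slc38a4, a carrier of small neutral and some cationic amino acids with high expression in liver, had 152, 362 and 179 scaled TPM in reprogrammed cells, 128, 166 and 85.5 in biliary cells and 404, 684 and 515 in hepatocytes of DDC mice, against 264, 225 and 192 in biliary cells and 807, 678 and 658 in hepatocytes of untreated mice. All reprogrammed and biliary libraries lay below the hepatocyte libraries of their treatment, with log2 differences of -1.66 ± 0.32 (SE; limma adjusted p = 0.000446) in untreated and -2.09 ± 0.32 (SE; limma adjusted p = 7.51e-05) in DDC biliary cells and -1.28 ± 0.32 (SE; limma adjusted p = 0.00512) in reprogrammed cells.

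The hepatocyte markers were also lower in biliary and reprogrammed cells than in hepatocytes. Their median log2 difference was -2.38 in untreated biliary cells and -2.66 in DDC biliary cells, each against hepatocytes of the same treatment, with 10 of 10 called lower in both. It was -1.33 in reprogrammed cells against DDC hepatocytes, with 8 of 10 called lower. By library, reprogrammed cells 1, 2 and 3 had summed hepatocyte markers of 27720, 84830 and 50300 scaled TPM, the same order as their Slc38a3. In DDC hepatocytes the orders differed, with sums of 86010, 155600 and 170300 and Slc38a3 at 544, 1034 and 975 scaled TPM. The orders of Slc38a4 and of the marker sums were the same in reprogrammed and DDC biliary cells and differed in the other groups. Whether hepatocyte RNA or hepatocytes within these sorts set the level of the hepatocyte-type carriers was not tested.

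Slc38a2, the system A carrier that cells raise when amino acids are short, followed another pattern. It had 37.6, 57.5 and 43.7 scaled TPM in reprogrammed cells, 38.8, 52.4 and 49.3 in biliary cells and 36.4, 80.8 and 40.2 in hepatocytes of DDC mice, against 51.3, 62.6 and 53.6 in biliary cells and 149, 223 and 150.3 in hepatocytes of untreated mice. The untreated hepatocytes stood apart from the other 4 groups, which overlapped. It was lower in untreated biliary cells than in untreated hepatocytes, with a log2 difference of -1.60 ± 0.27 (SE; limma adjusted p = 0.000169), and lower in DDC than in untreated hepatocytes, with -1.78 ± 0.27 (SE; limma adjusted p = 0.000384). Slc38a7, a carrier that exports glutamine from lysosomes, was lower in DDC biliary cells than in DDC hepatocytes. Its levels were 9.17, 7.23 and 8.32 scaled TPM in DDC biliary cells and 17.5, 18.1 and 19.2 in DDC hepatocytes, with no overlap and a log2 difference of -1.06 ± 0.12 (SE; limma adjusted p = 6.87e-06). Without DDC biliary library 2 the difference was -0.98, just short of the threshold. In the unscaled TPM the Slc38a7 difference was -0.04 (limma adjusted p = 0.765), so the call rested on the scale factors. With 5 added in place of 1 it was -0.815, also under the threshold.

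Cationic amino acids are carried by Slc7a2 in hepatocytes and by Slc7a1 in most other cells, and the 2 genes moved in opposite directions between the cell types. Slc7a2 had 42.1, 128 and 66.7 scaled TPM in reprogrammed cells, 31.2, 58 and 28.2 in biliary cells and 171, 268 and 167 in hepatocytes of DDC mice, against 43.5, 31.2 and 31.6 in biliary cells and 221, 197 and 183 in hepatocytes of untreated mice. Reprogrammed and biliary libraries all lay below the hepatocyte libraries of their treatment. Its log2 difference was -2.48 ± 0.36 (SE; limma adjusted p = 4.56e-05) in untreated biliary cells, -2.38 ± 0.36 (SE; limma adjusted p = 7.38e-05) in DDC biliary cells and -1.46 ± 0.36 (SE; limma adjusted p = 0.00503) in reprogrammed cells, each against hepatocytes of the same treatment. Slc7a1 had 4.98, 4.97 and 6.03 scaled TPM in reprogrammed cells, 9.13, 11.3 and 14.4 in biliary cells and 0.359, 0.263 and 0.391 in hepatocytes of DDC mice, against 4.3, 4.23 and 6.11 in biliary cells and 0.0598, 0.0119 and 0.024 in hepatocytes of untreated mice. The hepatocyte libraries were all below 0.4 scaled TPM and the others all above 4. The log2 difference of Slc7a1 was 2.50 ± 0.17 (SE; limma adjusted p = 4.14e-08) in untreated biliary cells, 3.22 ± 0.17 (SE; limma adjusted p = 5.55e-09) in DDC biliary cells and 2.24 ± 0.17 (SE; limma adjusted p = 2.86e-07) in reprogrammed cells. Slc7a4, a relative of the cationic carriers with no established substrate, had 8.59, 7.69 and 9.01 scaled TPM in reprogrammed cells, 13.7, 12.2 and 13.6 in biliary cells and 2.46, 5.24 and 5.00 in hepatocytes of DDC mice, against 11.2, 10.5 and 11.1 in biliary cells and 0.682, 1.03 and 1.65 in hepatocytes of untreated mice. It was higher in untreated biliary cells by 2.52 ± 0.21 (SE; limma adjusted p = 3.9e-07) and in DDC biliary cells by 1.49 ± 0.21 (SE; limma adjusted p = 4.6e-05), each against hepatocytes, with no overlap.

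Taurine, GABA, betaine, glycine and creatine carriers of the Slc6 family split between the cell types. Slc6a13, a carrier of GABA and taurine known from liver and kidney, had 58.7, 157 and 101 scaled TPM in reprogrammed cells, 31.4, 64.9 and 27 in biliary cells and 177, 305 and 298 in hepatocytes of DDC mice, against 51.6, 39.1 and 47.1 in biliary cells and 247, 236 and 259.5 in hepatocytes of untreated mice. Groups did not overlap in any comparison with hepatocytes, and the log2 difference was -2.41 ± 0.36 (SE; limma adjusted p = 5.82e-05) in untreated biliary cells, -2.70 ± 0.36 (SE; limma adjusted p = 2.58e-05) in DDC biliary cells and -1.36 ± 0.36 (SE; limma adjusted p = 0.0076) in reprogrammed cells. Slc6a12, the betaine carrier, lies 5343 bases from Slc6a13 on chromosome 6 in the GENCODE M21 annotation, with no protein-coding gene between them. It had 10.8, 35.8 and 15.8 scaled TPM in reprogrammed cells, 5.5, 12.7 and 5.43 in biliary cells and 31.2, 69 and 51.9 in hepatocytes of DDC mice, against 15.6, 10.5 and 10.8 in biliary cells and 76.3, 70.7 and 71.3 in hepatocytes of untreated mice. Its log2 difference was -2.49 ± 0.41 (SE; limma adjusted p = 0.000127) in untreated and -2.57 ± 0.41 (SE; limma adjusted p = 0.000111) in DDC biliary cells, without overlap, and -1.34 ± 0.41 (SE; limma adjusted p = 0.0158) in reprogrammed cells, where library 2 overlapped the DDC hepatocytes.

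Slc6a9, a glycine carrier, had 14.2, 17.2 and 16 scaled TPM in reprogrammed cells, 11.9, 11.3 and 9.41 in biliary cells and 36.8, 22.9 and 18.3 in hepatocytes of DDC mice, against 7.91, 5.87 and 6.09 in biliary cells and 29.8, 33.6 and 20.4 in hepatocytes of untreated mice. It was lower in untreated biliary cells, with a log2 difference of -1.90 ± 0.23 (SE; limma adjusted p = 1.09e-05), and in DDC biliary cells, with -1.13 ± 0.23 (SE; limma adjusted p = 0.000863), each against hepatocytes without overlap. Without DDC hepatocyte library 1 the DDC difference was -0.86, under the threshold. With 5 added in place of 1 it was -0.925. In the unscaled TPM the Slc6a9 difference was -0.09 under DDC (limma adjusted p = 0.74) and -0.72 in untreated cells (limma adjusted p = 0.0179), neither a call. Slc6a8, the creatine carrier, had 26.1, 20.2 and 28.5 scaled TPM in reprogrammed cells, 35, 24.4 and 28.5 in biliary cells and 18.9, 16.2 and 15.7 in hepatocytes of DDC mice, against 20.6, 16.5 and 20.6 in biliary cells and 3.09, 3.79 and 3.21 in hepatocytes of untreated mice. Only the untreated hepatocytes were below 15 scaled TPM. It was higher in untreated biliary cells than in untreated hepatocytes by 2.21 ± 0.16 (SE; limma adjusted p = 8.79e-08), while the DDC difference of 0.75 ± 0.16 (SE; limma adjusted p = 0.00106) was below the size needed for a call. Slc6a6, the taurine carrier, was not called in any comparison of the main fit, its differences staying under the size needed. It was called higher with quantile normalization in biliary cells than in hepatocytes of both treatments and in DDC than in untreated biliary cells. It was also called higher in these comparisons with the unscaled TPM, in reprogrammed cells against DDC hepatocytes and in DDC against untreated hepatocytes. It averaged 127 ± 20.5 scaled TPM in reprogrammed cells, 165 ± 28.4 in biliary cells and 94.2 ± 29 in hepatocytes of DDC mice, against 86.4 ± 6.73 in biliary cells and 52.2 ± 6.14 in hepatocytes of untreated mice (SD, n = 3 each). Its share of the summed member TPM was 18.5 ± 3.7% in DDC biliary cells and 4.04 ± 0.62% in DDC hepatocytes, against 9.59 ± 0.25% in biliary cells and 1.86 ± 0.29% in hepatocytes of untreated mice.

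Of all tested members Slc43a2 had the largest log2 difference in each of the 3 comparisons with hepatocytes when 1 was added to the scaled TPM. With 0.1 added it stayed first in untreated cells, at 5.48, and Slc7a6 was first in DDC biliary cells and in reprogrammed cells, at 5.49 and 4.74, with Slc43a2 the third at 4.02 and 3.21. This carrier, which takes leucine, phenylalanine and methionine by facilitated diffusion, had 73.3, 29.2 and 53.6 scaled TPM in reprogrammed cells, 109.9, 61.7 and 92 in biliary cells and 7.8, 3.69 and 4.8 in hepatocytes of DDC mice, against 48, 31.4 and 43.2 in biliary cells and 0.617, 0.817 and 1.01 in hepatocytes of untreated mice. Every hepatocyte library was under 8 scaled TPM and every other library above 29. Its log2 difference was 4.51 ± 0.33 (SE; limma adjusted p = 9.6e-08) in untreated biliary cells, 3.80 ± 0.33 (SE; limma adjusted p = 6e-07) in DDC biliary cells and 3.0 ± 0.33 (SE; limma adjusted p = 1.06e-05) in reprogrammed cells, each against hepatocytes. Its relative Slc43a1, which takes similar substrates, ran the other way at low levels. Slc43a1 averaged 2.52 ± 1.62 scaled TPM in reprogrammed cells, 0.917 ± 0.775 in biliary cells and 5.53 ± 3.27 in hepatocytes of DDC mice, against 1.31 ± 0.494 in biliary cells and 6.69 ± 0.898 in hepatocytes of untreated mice (SD, n = 3 each). It was called lower in biliary cells in both treatments, with log2 differences of -1.75 in untreated and -1.68 in DDC cells. Slc43a3, a nucleobase carrier of the same family, averaged 5.00 ± 1.22 scaled TPM in reprogrammed cells, 6.58 ± 1.02 in biliary cells and 2.1 ± 0.588 in hepatocytes of DDC mice, against 2.54 ± 0.398 in biliary cells and 0.623 ± 0.118 in hepatocytes of untreated mice (SD, n = 3 each). It was called higher in biliary cells in both treatments, at 1.12 in untreated and 1.30 in DDC cells, although the untreated difference turned to -0.04 with quantile normalization.

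The Slc7 light chains that pair with the heavy chain Slc3a2 were low in hepatocytes, apart from Slc7a11 in 1 DDC library. Slc7a7, an exchanger of cationic for neutral amino acids, had 18.1, 4.58 and 9.06 scaled TPM in reprogrammed cells, 16.2, 6.95 and 12.2 in biliary cells and 5.16, 0.99 and 1.83 in hepatocytes of DDC mice, against 11.1, 14.3 and 11.2 in biliary cells and 0.542, 0.562 and 1.61 in hepatocytes of untreated mice. Library 1 was the highest of its group in all 3 DDC groups, and reprogrammed library 2 lay below DDC hepatocyte library 1. The log2 difference was 2.83 ± 0.47 (SE; limma adjusted p = 0.000154) in untreated biliary cells, 1.90 ± 0.47 (SE; limma adjusted p = 0.00329) in DDC biliary cells and 1.65 ± 0.47 (SE; limma adjusted p = 0.0119) in reprogrammed cells. Slc7a7 is also a macrophage gene, and the 10 macrophage markers summed to 36.7 to 64.4 scaled TPM in reprogrammed cells, 34.6 to 96.9 in DDC biliary cells and 20.9 to 43.5 in DDC hepatocytes, against 73.2 to 105 in biliary cells and 18 to 32.5 in hepatocytes of untreated mice. Of 9 macrophage markers tested, 1 (Csf1r) was called higher in each of these 3 comparisons and none was at 0 throughout a group. Their part in the Slc7a7 levels was not tested.

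Slc7a6, another exchanger of this type, had 7.4, 4.93 and 7.18 scaled TPM in reprogrammed cells, 10.9, 9.6 and 12.1 in biliary cells and 0.594, 0.0416 and 0.0478 in hepatocytes of DDC mice, against 3.1, 3.39 and 3.55 in untreated biliary cells, and was listed at 0 in all 3 untreated hepatocyte libraries. It was called higher in untreated biliary cells (limma adjusted p = 4.51e-07), with no fold given because of the zeros. In the DDC comparisons its log2 difference was 3.30 ± 0.18 (SE; limma adjusted p = 9.71e-09) for biliary cells and 2.62 ± 0.18 (SE; limma adjusted p = 1.5e-07) for reprogrammed cells, each against hepatocytes. Slc7a5, the leucine exchanger that proliferating cells use to feed mTORC1, was at 0.38 to 2.06 scaled TPM in all hepatocytes and untreated biliary cells. It averaged 4.45 ± 0.884 scaled TPM in reprogrammed cells, 6.5 ± 2.69 in biliary cells and 0.403 ± 0.0209 in hepatocytes of DDC mice, against 0.445 ± 0.056 in biliary cells and 1.63 ± 0.489 in hepatocytes of untreated mice (SD, n = 3 each). It was higher than in DDC hepatocytes by 2.34 ± 0.25 (SE; limma adjusted p = 3.54e-06) in DDC biliary cells and by 1.95 ± 0.25 (SE; limma adjusted p = 4.4e-05) in reprogrammed cells.

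The heavy chains themselves behaved differently from each other. Slc3a2 averaged 36 ± 2.24 scaled TPM in reprogrammed cells, 33.5 ± 0.756 in biliary cells and 47.2 ± 8.64 in hepatocytes of DDC mice, against 36.9 ± 1.47 in biliary cells and 46 ± 3.37 in hepatocytes of untreated mice (SD, n = 3 each), and was not called in any comparison. Slc3a1, the heavy chain of the cystine and dibasic amino acid exchanger, had 7.69, 21.8 and 20.9 scaled TPM in reprogrammed cells, 3.26, 9.08 and 4.33 in biliary cells and 16, 34.4 and 35.9 in hepatocytes of DDC mice, against 21, 13.5 and 16.2 in biliary cells and 78.6, 66.4 and 75.2 in hepatocytes of untreated mice. Biliary and hepatocyte libraries did not overlap in either treatment, whereas reprogrammed libraries overlapped both DDC groups. Its log2 difference was -2.07 ± 0.41 (SE; limma adjusted p = 0.000598) in untreated and -2.20 ± 0.41 (SE; limma adjusted p = 0.000411) in DDC biliary cells, each against hepatocytes.

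Glutamate and small neutral carriers of the Slc1 family also split. Slc1a2, a high-affinity glutamate carrier known from hepatocytes around the central vein, had 17.5, 3.42 and 2.24 scaled TPM in reprogrammed cells, 5.45, 3.1 and 3.5 in biliary cells and 13.8, 5.96 and 4.75 in hepatocytes of DDC mice, against 6.13, 6.67 and 3.94 in biliary cells and 28.9, 35.4 and 18 in hepatocytes of untreated mice. Untreated hepatocytes were the highest group, and library 1 was the highest of the reprogrammed and of the DDC hepatocyte libraries. It was lower in untreated biliary cells than in untreated hepatocytes, with a log2 difference of -2.09 ± 0.55 (SE; limma adjusted p = 0.00455). Slc1a4, an exchanger of alanine, serine and cysteine, had 9.09, 4.52 and 5.89 scaled TPM in reprogrammed cells, 6.6, 3.45 and 3.38 in biliary cells and 31.4, 7.98 and 15 in hepatocytes of DDC mice, against 2.62, 2.25 and 3.56 in biliary cells and 8.21, 10.4 and 11.3 in hepatocytes of untreated mice. The log2 difference was -1.53 ± 0.39 (SE; limma adjusted p = 0.00373) in untreated and -1.66 ± 0.39 (SE; limma adjusted p = 0.00228) in DDC biliary cells, without overlap. Slc1a5, the glutamine exchanger of most dividing cells, averaged 5.45 ± 0.387 scaled TPM in reprogrammed cells, 6.85 ± 1.76 in biliary cells and 1.94 ± 0.509 in hepatocytes of DDC mice, against 3.91 ± 0.968 in biliary cells and 1.35 ± 0.202 in hepatocytes of untreated mice (SD, n = 3 each). It was called higher in biliary cells in both treatments, at 1.05 in untreated and 1.41 in DDC cells. The untreated call was lost without untreated biliary library 3 (0.89) or untreated hepatocyte library 2 (0.99). Slc36a1, a proton-coupled exporter of small amino acids from lysosomes, had 8.55, 7.31 and 7.68 scaled TPM in reprogrammed cells, 6.46, 6.63 and 6.43 in biliary cells and 15.7, 11.2 and 9.83 in hepatocytes of DDC mice, against 8.13, 5.66 and 6.15 in biliary cells and 22, 18.6 and 19.6 in hepatocytes of untreated mice. The untreated groups did not overlap and the log2 difference was -1.47 ± 0.16 (SE; limma adjusted p = 3.89e-06).

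**Figure D3:**
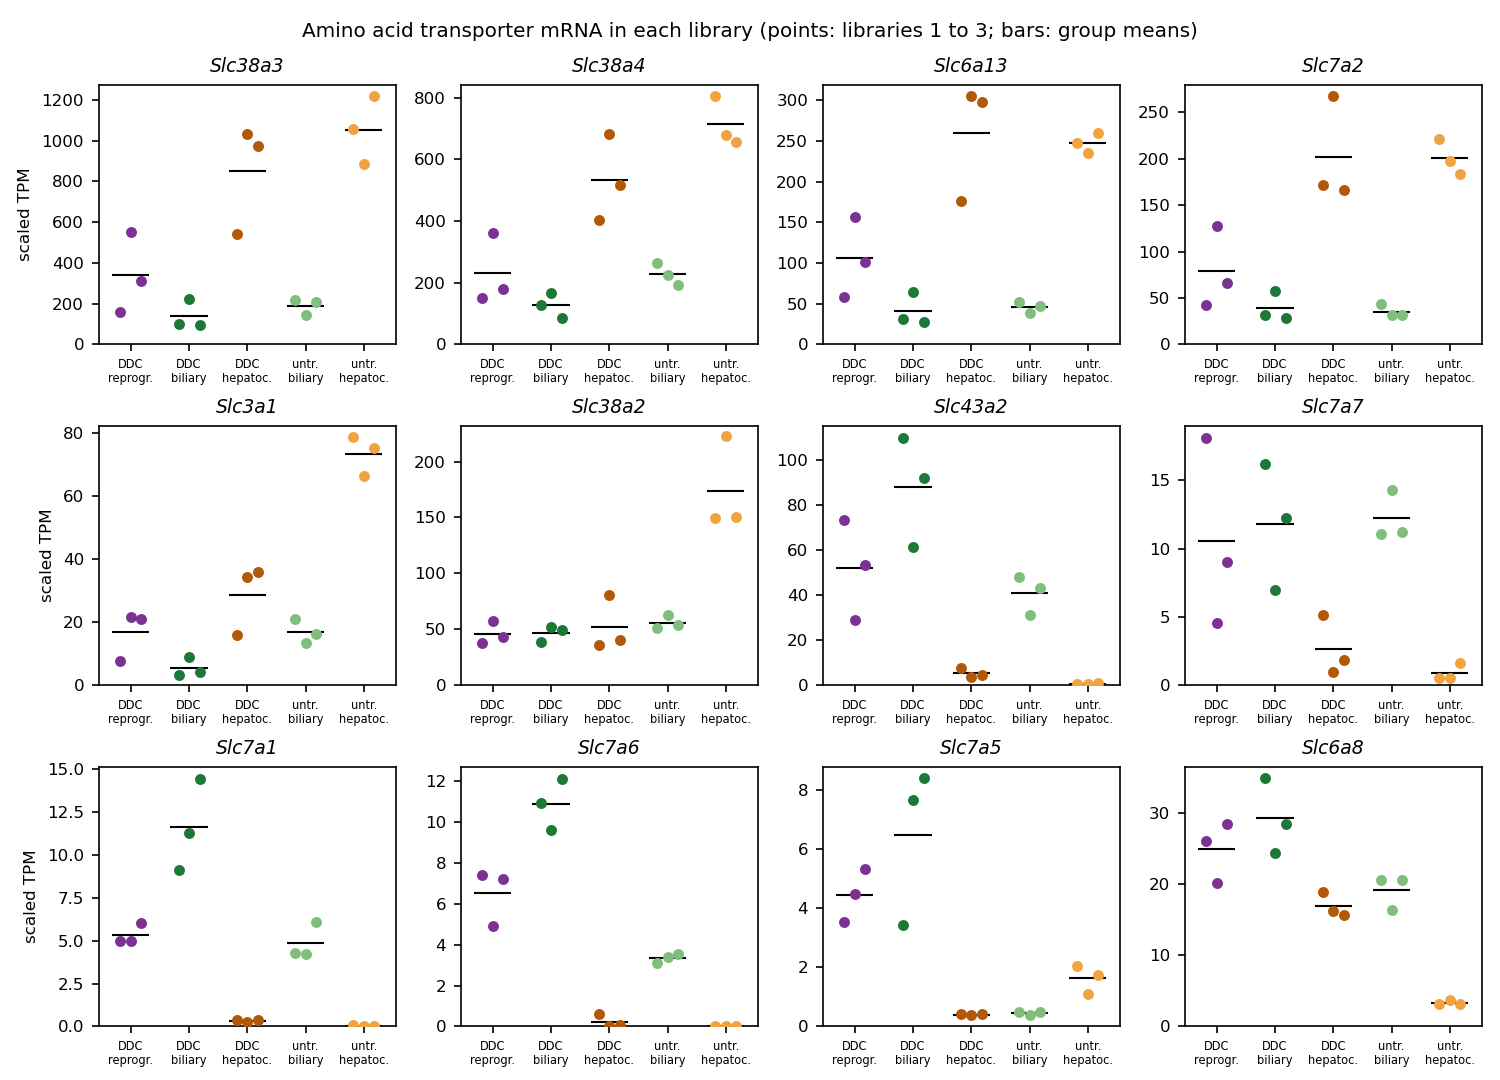
Points show the scaled TPM (y axis, linear, starting at 0) of 12 transporters in each library, grouped along the x axis as DDC reprogrammed cells, DDC biliary cells, DDC hepatocytes, untreated biliary cells and untreated hepatocytes, with bars at the group means. Slc38a3, Slc38a4, Slc6a13 and Slc7a2 are highest in hepatocytes, Slc43a2, Slc7a7, Slc7a1 and Slc7a6 are highest in biliary and reprogrammed cells, Slc38a2 stands out in untreated hepatocytes alone, and Slc7a5 is above 3 scaled TPM in reprogrammed and DDC biliary cells alone.

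Reprogrammed cells were compared with DDC hepatocytes, the hepatocytes of the same treatment. Of the 31 members, 7 were called higher, against 13.8% of all genes, and 6 were called lower, against 5.77% of all genes. Those higher were Slc43a2, Slc7a6, Slc7a1, Slc7a5, Slc7a7, Slc1a5 at 1.15 and Slc38a1 at 1.01. Slc38a1, a system A glutamine carrier, averaged 1.21 ± 0.64 scaled TPM in reprogrammed cells and 0.068 ± 0.0374 in DDC hepatocytes (SD, n = 3 each). Those lower were Slc7a2, Slc38a3, Slc6a13, Slc6a12, Slc38a4 and Slc1a4, the last with a log2 difference of -1.20 ± 0.39 (SE; limma adjusted p = 0.0225) and overlapping groups. The members' median was -0.11 beside 0.06 for all genes. With the unscaled TPM 12 members were called higher and 0 lower, and over all genes 4240 higher and 9 lower in place of 1920 and 802. Quantile normalization called 4 members in each direction, against 1381 and 702 genes over all. By that limma fit Slc38a3 (-0.73, adjusted p = 0.123), Slc38a4 (-0.60, adjusted p = 0.0945), Slc6a13 (-0.84, adjusted p = 0.0705), Slc7a7 (1.01, adjusted p = 0.0793), Slc1a5 (0.40, adjusted p = 0.102) and Slc38a1 (0.73, adjusted p = 0.0305) were no longer called, and Slc43a1 was newly called lower.

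Several of these calls rested on single libraries. Without reprogrammed library 1, which had the lowest hepatocyte and the highest biliary marker sum of its group, Slc38a3 (-0.99, adjusted p = 0.0668), Slc6a12 (-0.98, adjusted p = 0.0767), Slc6a13 (-0.99), Slc7a7 (1.19, adjusted p = 0.0589) and Slc38a1 (0.78) were no longer called by limma. Slc1a4 was lost without reprogrammed library 2 (-1.004, adjusted p = 0.0744) or 3 (-1.16, adjusted p = 0.061) or DDC hepatocyte library 1 (-0.73, adjusted p = 0.0838). Slc6a12 was also lost without reprogrammed library 3 (-1.24, adjusted p = 0.0538) or DDC hepatocyte library 2 (-1.10, adjusted p = 0.0624), Slc7a7 without DDC hepatocyte library 2 (1.29, adjusted p = 0.0516) and Slc1a5 without DDC hepatocyte library 1 (0.999). Slc43a2, Slc7a6, Slc7a1, Slc7a5, Slc7a2 and Slc38a4 stayed called in the fits that left out 1 library.

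The reprogrammed libraries shared no sample with the untreated groups, so their differences from DDC hepatocytes can be set beside the untreated biliary and hepatocyte difference. All 6 members called lower in reprogrammed cells were also lower in untreated biliary cells, which is 50% of the 12 calls there, beside 96.4% and 35.5% over all genes. Of the 7 called higher, 5 were shared, which is 71.4% of the reprogrammed and 62.5% of the untreated calls, beside 83.1% and 53% over all genes. Slc7a5 and Slc38a1 were called in reprogrammed cells and not in untreated biliary cells, a difference that was not tested. Slc7a5 had a log2 difference of -0.85 between untreated biliary cells and hepatocytes, below the size needed for a call.

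Against DDC biliary cells, reprogrammed cells differed in few members. The heavy chain Slc3a1 was called higher by 1.42 ± 0.41 (SE; limma adjusted p = 0.0371) and Slc6a13 by 1.34 ± 0.36 (SE; limma adjusted p = 0.0274), against 2.77% of all genes, and 0 members were called lower, against 0.741% of all genes. At limma's unadjusted p under 0.05, with no size needed, 7 members were higher and 4 lower. The share of all genes at that threshold is not given here, so these counts cannot be set against it. With the adjusted p alone, Slc7a1 at -0.98 and Slc7a6 at -0.67 were lower and Slc38a7 was added to those higher. Over all genes the adjusted p alone called 1150 higher and 890 lower. In both called genes the groups overlapped, reprogrammed library 1 lying within the range of DDC biliary cells. Set against the DDC biliary library of the same number, each reprogrammed library was higher, by 1.03, 1.18 and 2.04 on the log2 scale for Slc3a1 and by 0.88, 1.26 and 1.87 for Slc6a13. The calls were lost without reprogrammed library 2 (Slc3a1 1.17, adjusted p = 0.155; Slc6a13 0.996, adjusted p = 0.126) or 3 (1.20, adjusted p = 0.12; 1.31, adjusted p = 0.0731) and without DDC biliary library 1 (1.16, adjusted p = 0.104; 1.21, adjusted p = 0.0698) or 3 (1.32, adjusted p = 0.139; 1.10, adjusted p = 0.132). Leaving out reprogrammed library 1 gave 6 higher and 1 lower, beside 626 and 206 over all genes. Leaving out DDC biliary library 2 gave 5 higher, beside 512 over all genes. With the replicate number as a block limma called 4 members higher, Slc3a1 at 1.42 ± 0.19 (SE; adjusted p = 0.00588) and Slc6a13 at 1.34 ± 0.21 (SE; adjusted p = 0.00659) being joined by Slc6a12 at 1.22 ± 0.17 (SE; adjusted p = 0.00588) and Slc38a3 at 1.20 ± 0.22 (SE; adjusted p = 0.00807). Slc6a12 and Slc38a3 were higher in 3 of 3 same-numbered pairs. The block fit that picked these genes uses the same differences, so this adds no support, and the labels do not say that same-numbered libraries are pairs. Over all genes the block called 568 higher and 121 lower, in place of 385 and 103. Of the hepatocyte markers 7 of 10 were called higher in reprogrammed than in DDC biliary cells, with a median log2 difference of 1.26, and their part in these 2 calls was not tested. The unscaled TPM called 2 members in each direction and over all genes 120 higher and 576 lower, in place of 385 and 103.

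Fewer members were called between DDC and untreated cells of a type, 22.6% in hepatocytes and 19.4% in biliary cells, than between biliary cells and hepatocytes, 61.3% under DDC and 64.5% in untreated mice. The same order held over all genes, at 11.1% and 10.5% against 34.7% and 37.3%. In hepatocytes 4 members were called higher under DDC, against 6.63% of all genes, and 3 lower, against 4.44% of all genes. The creatine carrier Slc6a8 was higher by 2.04 ± 0.16 (SE; limma adjusted p = 1.68e-06), Slc43a2 by 1.78 ± 0.33 (SE; limma adjusted p = 0.00144) and Slc7a4 by 1.28 ± 0.21 (SE; limma adjusted p = 0.000709), each without overlap. Slc1a1, a glutamate and cysteine carrier, was called higher at low levels, with 1.49 ± 1.31 scaled TPM in DDC and 0.0607 ± 0.0526 in untreated hepatocytes (SD, n = 3 each). Slc38a2, Slc1a2 and Slc3a1 were lower in DDC than in untreated hepatocytes. The log2 difference was -1.71 ± 0.55 (SE; limma adjusted p = 0.0348) for Slc1a2 and -1.40 ± 0.41 (SE; limma adjusted p = 0.0225) for Slc3a1, without overlap. Biliary markers were also higher in DDC hepatocytes, 5 of 10 being called, with the sums given above for both groups. So were 2 of 5 neutrophil markers, whose list summed to 13.8 to 19.3 scaled TPM in DDC and 4.85 to 6.07 in untreated hepatocytes, and 1 of 9 macrophage markers was called higher and 1 lower. The part of these cells in Slc43a2 and Slc7a4 was not tested. With quantile normalization Slc7a4 (0.81, adjusted p = 0.00608), Slc1a2 (-1.32, adjusted p = 0.094) and Slc3a1 (-1.09, adjusted p = 0.0793) were no longer called by limma. The unscaled TPM called 4 members higher and 2 lower, and over all genes 1036 to 360 in place of 922 to 618.

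The calls for Slc1a1, Slc1a2 and Slc3a1 in hepatocytes depended on single libraries. Slc1a1 was lost without DDC hepatocyte library 1 (0.72, adjusted p = 0.0788) or untreated hepatocyte library 1, 2 or 3 (1.16, 1.15 and 1.09, adjusted p = 0.0574, 0.0545 and 0.0633). Slc1a2 was lost without DDC hepatocyte library 2 or 3 (-1.58 and -1.44, adjusted p = 0.0923 and 0.116) or untreated hepatocyte library 1 or 2 (-1.66 and -1.51, adjusted p = 0.0941 and 0.111). Slc3a1 was lost without DDC hepatocyte library 1 (-1.04, adjusted p = 0.0802) or untreated hepatocyte library 1 or 3 (-1.35 and -1.38, adjusted p = 0.0682 and 0.0566). The count of members called lower was 1 without untreated hepatocyte library 1, beside 536 over all genes.

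In biliary cells 5 members were called higher under DDC, against 5.7% of all genes, and 1 lower, against 4.77% of all genes. Slc7a5 was higher in DDC than in untreated biliary cells by 2.30 ± 0.25 (SE; limma adjusted p = 2.71e-05), the widest change among them. Slc7a6 was higher by 1.45 ± 0.18 (SE; limma adjusted p = 8.95e-05), Slc7a1 by 1.09 ± 0.17 (SE; limma adjusted p = 0.000382), Slc43a2 by 1.07 ± 0.33 (SE; limma adjusted p = 0.0286) and Slc43a3 by 1.10 ± 0.19 (SE; limma adjusted p = 0.000873). All 5 were without overlap between DDC and untreated libraries. Slc3a1 was lower, with a log2 difference of -1.53 ± 0.41 (SE; limma adjusted p = 0.0153). In both cell types 4 of 10 hepatocyte markers were also called lower under DDC, and 3 of 10 biliary, 3 of 9 stellate and fibroblast and 3 of 5 neutrophil markers were called higher in DDC than in untreated biliary cells. The stellate and fibroblast list had 1 marker called lower, a median log2 difference of 0.70 and sums of 16.8 to 90.9 scaled TPM in DDC and 22.7 to 32.1 in untreated biliary cells. The neutrophil list summed to 26.5 to 33.8 scaled TPM in DDC and 2.63 to 3.59 in untreated biliary cells. Their part in these calls was not tested. The members' median was 0.25 beside -0.02 for all genes in biliary cells, and 0.15 beside 0.02 in hepatocytes.

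Of these, Slc43a2 was lost without DDC biliary library 1 or 3 (0.89 and 1.02, adjusted p = 0.0873 and 0.0876) or untreated biliary library 2 or 3 (0.89 and 1.12, adjusted p = 0.109 and 0.0581), and Slc3a1 without DDC biliary library 1 or 3 (-1.26 and -1.42, adjusted p = 0.054 and 0.0593) or untreated biliary library 1 (-1.37, adjusted p = 0.0651). Slc7a1 fell under the size needed without DDC biliary library 3 (0.94) and Slc43a3 without untreated biliary library 3 (0.99). Leaving out DDC biliary library 3 or untreated biliary library 3 left 3 members called higher, beside 691 and 791 over all genes. Leaving out DDC biliary library 2 gave 2 called lower, beside 662 over all genes.

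**Figure D4:**
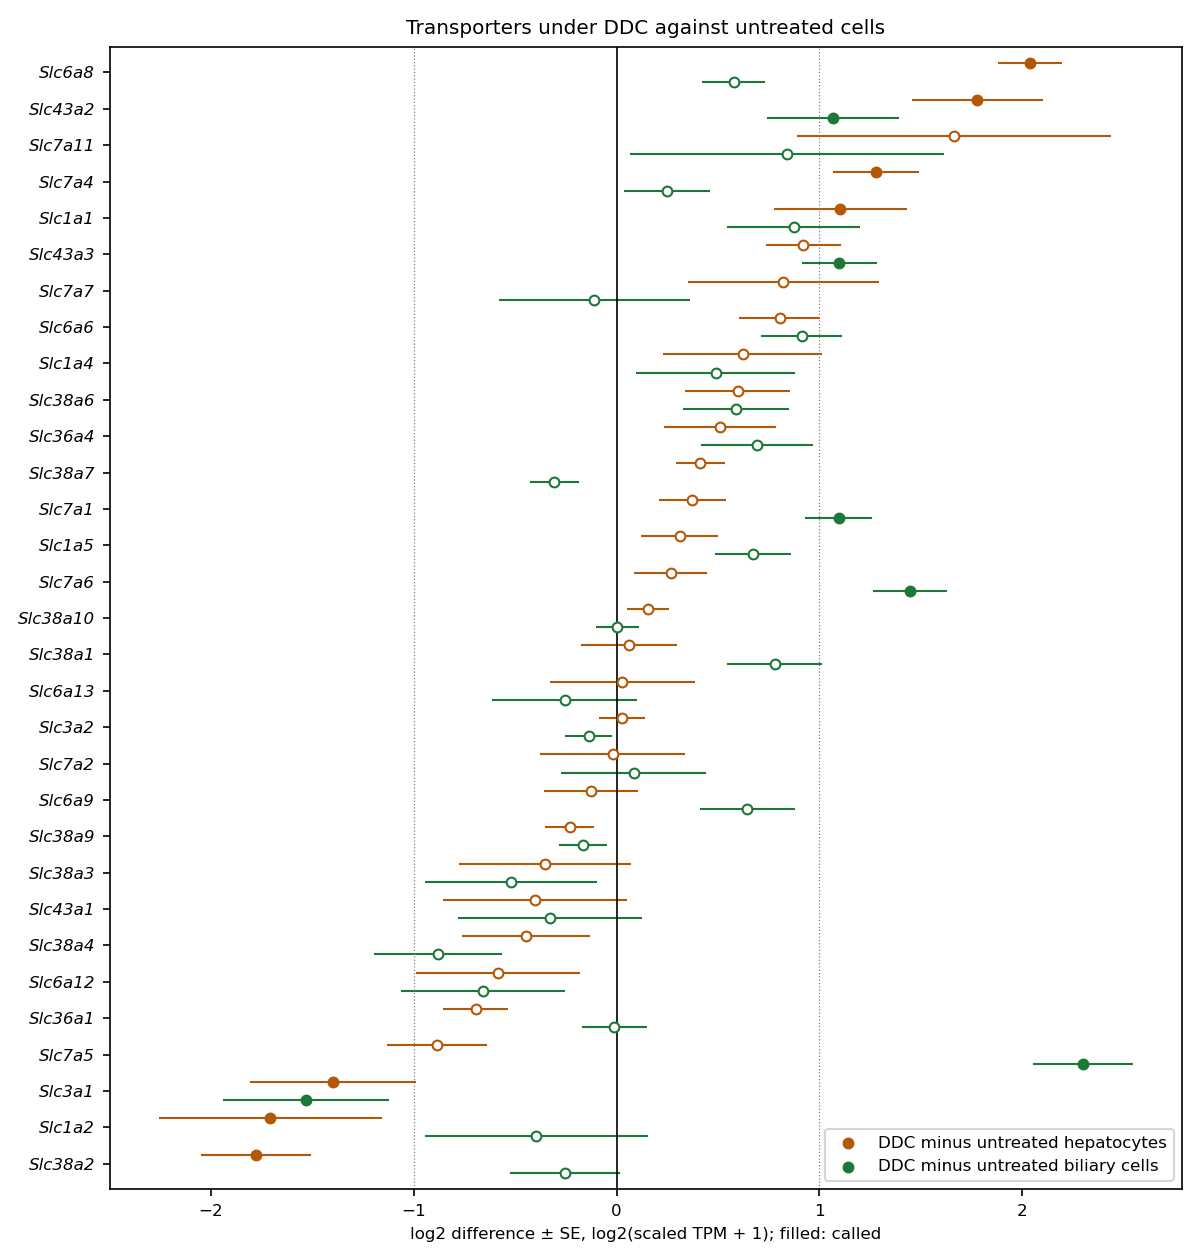
Points show the log2 difference between DDC and untreated cells with its SE (x axis, log2(scaled TPM + 1) scale) for each tested member (y axis), in hepatocytes (brown) and in biliary cells (green), and filled points were called. Slc7a5 stands at 2.30 in biliary cells and at -0.89 in hepatocytes, Slc6a8 at 2.04 in hepatocytes and 0.58 in biliary cells, and Slc38a2 at -1.78 in hepatocytes and -0.26 in biliary cells.

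The DDC response was tested for a difference between the cell types with an interaction term, which called 8.44% of all genes. It called 3 members with a response more positive in biliary cells, against 3.47% of all genes, and 2 with a response more negative there, against 4.96% of all genes. Slc7a5 had the widest, with biliary minus hepatocyte responses of 3.19 ± 0.35 (SE; limma adjusted p = 8.01e-05). Its DDC biliary libraries were at 3.42, 7.68 and 8.41 scaled TPM and the untreated biliary libraries at 0.473, 0.381 and 0.482, whereas DDC hepatocytes were at 0.42, 0.38 and 0.408 and untreated hepatocytes at 2.06, 1.09 and 1.73. The response of Slc38a2 differed by 1.52 ± 0.38 (SE; limma adjusted p = 0.0196) and that of Slc7a6 by an adjusted p of 0.00837 in limma, but the Slc7a6 call rests on the added 1, since untreated hepatocytes were listed at 0. With 0.1 added, the Slc7a6 difference was 0.38 (limma adjusted p = 0.822). Slc6a8 differed by -1.46 ± 0.22 (SE; limma adjusted p = 0.00089), with responses of 0.58 in biliary cells and 2.04 in hepatocytes, and Slc7a4 by -1.03 ± 0.30 (SE; limma adjusted p = 0.0393). Slc38a2 lost its call without untreated hepatocyte library 2 (1.34, adjusted p = 0.0521). Slc7a4 lost it in 10 of the 12 fits that left out 1 library, every one but those without DDC hepatocyte library 1 or untreated hepatocyte library 3, with adjusted p between 0.0577 and 0.0949. With quantile normalization Slc7a5 alone stayed called by limma, and the values were 1.16 for Slc38a2 (adjusted p = 0.0539), 0.90 for Slc7a6 (adjusted p = 0.148), -0.74 for Slc6a8 (adjusted p = 0.051) and -0.52 for Slc7a4 (adjusted p = 0.236).

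Slc7a11, the cystine and glutamate exchanger that supplies cysteine for glutathione, was expressed in scattered libraries. It had 2.59, 0.27 and 0.862 scaled TPM in reprogrammed cells, 3.02, 0.208 and 0.224 in biliary cells and 14.7, 0.514 and 0.334 in hepatocytes of DDC mice, against 0.0309, 0.00479 and 0.00474 in untreated biliary cells, and was listed at 0 in all 3 untreated hepatocyte libraries. Library 1 was the highest in each DDC group, and in DDC hepatocytes it alone exceeded 1. The gene was not called in any of the 7 comparisons of the main fit. With quantile normalization or with 0.1 added it was called higher in DDC than in untreated hepatocytes.

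Related carriers with overlapping substrates were also compared as ratios within each library, which no scale factor can move. With 3 libraries a group the two-sided exact permutation test cannot give a p under 0.1. Slc7a1 made up 10.6%, 3.74% and 8.3% of the Slc7a1 and Slc7a2 sum in reprogrammed cells, 22.6%, 16.3% and 33.8% in biliary cells and 0.209%, 0.098% and 0.234% in hepatocytes of DDC mice, against 9.0%, 11.9% and 16.2% in biliary cells and 0.0271%, 0.00604% and 0.0131% in hepatocytes of untreated mice. Reprogrammed libraries lay between the biliary and the hepatocyte libraries of the DDC livers without overlap, with an exact p of 0.1 for each. Slc43a2 made up 98.6%, 87.3% and 96% of the Slc43a2 and Slc43a1 sum in reprogrammed cells, 99.9%, 97.3% and 99% in biliary cells and 81.7%, 33.3% and 39.2% in hepatocytes of DDC mice, against 96.7%, 97.7% and 96.6% in biliary cells and 8.7%, 12.1% and 11.7% in hepatocytes of untreated mice. DDC hepatocytes thus stood above untreated hepatocytes in every library, with the exact p at its smallest value of 0.1.

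Slc1a5 made up 38.8%, 52.6% and 48.6% of the Slc1a5 and Slc1a4 sum in reprogrammed cells, 46.7%, 63% and 72.5% in biliary cells and 4.13%, 22.4% and 12.5% in hepatocytes of DDC mice, against 54.3%, 61.7% and 58.3% in biliary cells and 14.4%, 9.86% and 12% in hepatocytes of untreated mice. The ratio separated hepatocytes from the other cells in both treatments, and DDC and untreated cells of a type overlapped (exact p of 0.8 in hepatocytes and in biliary cells). Slc38a2 made up 23.3%, 24% and 36.6% of the Slc38a2 and Slc38a4 sum in DDC biliary cells and 8.27%, 10.6% and 7.24% in DDC hepatocytes, against 16.3%, 21.7% and 21.9% in biliary cells and 15.6%, 24.7% and 18.6% in hepatocytes of untreated mice. The untreated cell types overlapped (exact p of 0.9), the DDC cell types did not (exact p of 0.1), and reprogrammed cells lay between them at 19.9%, 13.7% and 19.6%. Slc3a1 made up 18.3%, 38.4% and 35.2% of the heavy chain sum in reprogrammed cells, 9.07%, 21% and 11.4% in biliary cells and 22%, 46.2% and 44.6% in hepatocytes of DDC mice, against 35.3%, 27.1% and 31.2% in biliary cells and 63.3%, 57.3% and 63.7% in hepatocytes of untreated mice.

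Light chains known to pair with Slc3a2 (Slc7a5, Slc7a6, Slc7a7, Slc7a8, Slc7a10 and Slc7a11) were summed and given as a percent of Slc3a2. The sum reached 92.7%, 41% and 59% of Slc3a2 in reprogrammed cells, 104%, 72.7% and 101% in biliary cells and 36.8%, 5.25% and 6.34% in hepatocytes of DDC mice, against 38.7%, 50.1% and 43.9% in biliary cells and 5.98%, 3.56% and 8.1% in hepatocytes of untreated mice. In hepatocytes the measured light chain mRNA was thus a small part of the heavy chain mRNA, apart from DDC hepatocyte library 1, whose 14.7 scaled TPM of Slc7a11 made up most of the sum. DDC biliary libraries all lay above the untreated ones (exact p of 0.1).

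**Figure D5:**
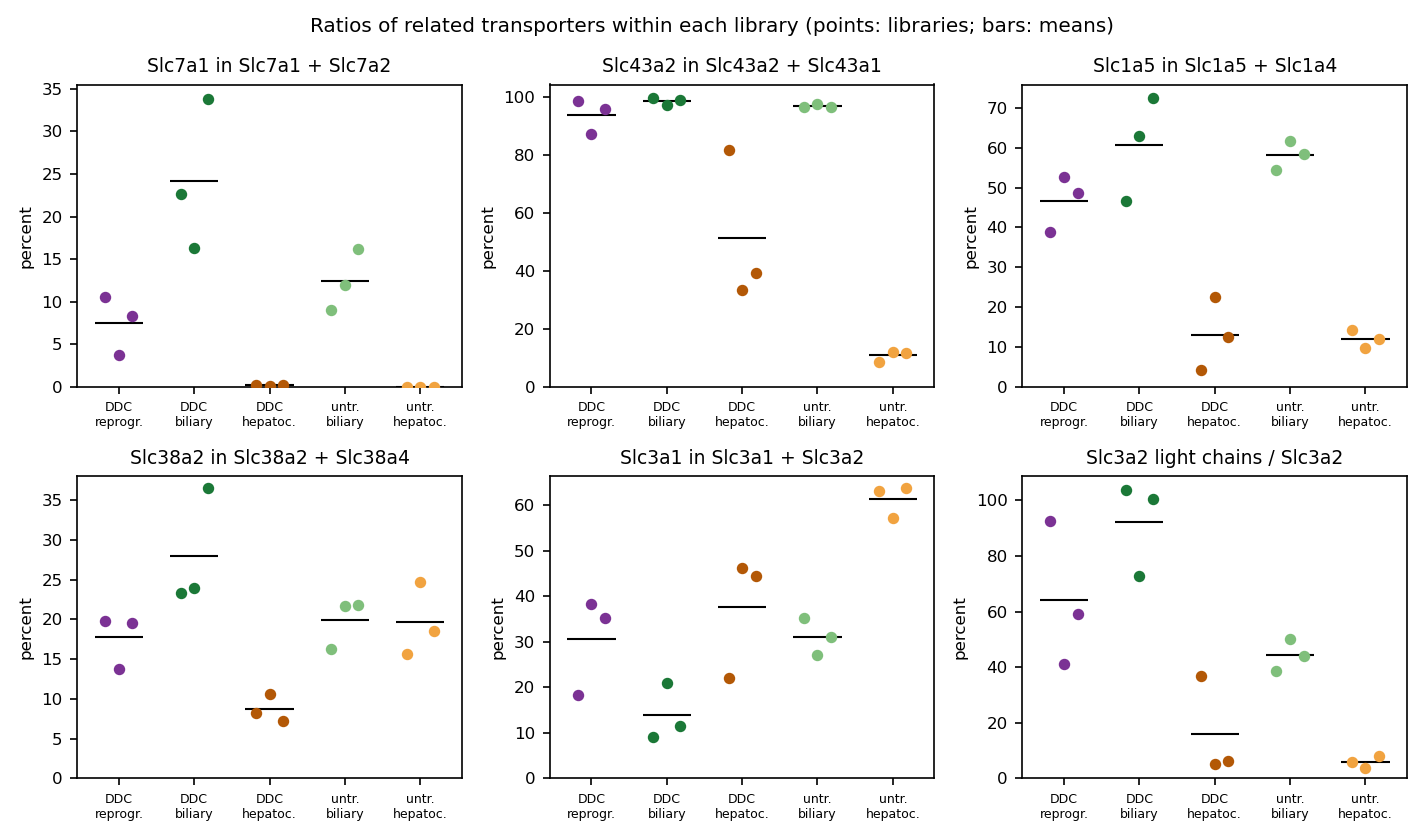
Points show, for each library, the percent that 1 carrier makes up of a related pair, or the light chains as a percent of Slc3a2 (y axis, percent), by group along the x axis, with bars at the group means. Slc7a1 in its pair with Slc7a2 is at most 0.234% in hepatocytes and 3.74% to 33.8% elsewhere, and DDC hepatocytes are lowest for Slc38a2 in its pair with Slc38a4.

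In all, 24 of the 31 tested members were called in at least 1 of the 7 comparisons, or 77.4%, beside 48.3% of all genes tested, and 7 in none. Besides Slc6a6, Slc3a2 and Slc7a11, those not called in the main fit were Slc38a10, Slc38a6, Slc38a9 and Slc36a4. Slc38a10, a widely expressed member whose substrates are less settled, averaged 53.5 ± 2.41 scaled TPM in reprogrammed cells, 47.6 ± 2.04 in biliary cells and 61 ± 8.47 in hepatocytes of DDC mice, against 47.5 ± 3.85 in biliary cells and 54.4 ± 2.94 in hepatocytes of untreated mice (SD, n = 3 each). Slc38a9, the lysosomal arginine sensor of mTORC1, averaged 1.91 ± 0.222 scaled TPM in reprogrammed cells, 2.34 ± 0.288 in biliary cells and 2.07 ± 0.36 in hepatocytes of DDC mice, against 2.74 ± 0.137 in biliary cells and 2.59 ± 0.109 in hepatocytes of untreated mice (SD, n = 3 each).

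Some members lie over genes on the opposite strand in the GENCODE M21 annotation: Slc3a1 over Prepl, Slc6a9 over Ccdc24 and B4galt2, Slc7a4 over P2rx6, Slc7a7 over Oxa1l and Slc1a1 over 4430402I18Rik. Whether reads were assigned by strand was not given in the sources used here, so the values of these members are uncertain to that extent. Members that neighbour each other on a chromosome did not always move together. Slc6a13 and Slc6a12 were called in the same direction in each comparison of biliary or reprogrammed cells with hepatocytes. Slc38a1, Slc38a2 and Slc38a4 follow each other on chromosome 15 with no protein-coding gene between them, and in reprogrammed cells against DDC hepatocytes Slc38a1 was called higher, Slc38a4 lower and Slc38a2 was at -0.11 without a call. Slc43a1 and Slc43a3 lie 72985 bases apart on chromosome 2 and were called in opposite directions between biliary cells and hepatocytes in both treatments.

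Genes that work alongside these carriers were taken from 5 lists, which are described by counts. Of 25 tested enzymes of amino acid breakdown and the urea cycle, 14 were called lower in reprogrammed cells, 24 in DDC biliary cells and 23 in untreated biliary cells, each against hepatocytes of the same treatment, and 0 were called higher. Over all genes 5.77%, 14.4% and 15.6% were called lower in these comparisons. The list's median log2 difference was -1.37, -2.57 and -2.33 in that order, beside 0.06, 0.15 and 0.12 for all genes. Cps1, Fah and Tat are also among the 10 hepatocyte markers, whose medians in these comparisons were close, at -1.33, -2.66 and -2.38. Whether the enzymes fell apart from the hepatocyte markers was not tested. Cps1, the entry enzyme of the urea cycle, averaged 880.5 ± 593 scaled TPM in reprogrammed cells and 2488 ± 892 in DDC hepatocytes, a log2 difference of -1.68 ± 0.48 (SE; limma adjusted p = 0.0119). Among enzymes of glutamine, glutamate, cystine and glutathione, 15 of 21 were called lower and 2 higher in untreated biliary cells than in hepatocytes, beside 15.6% and 21.6% of all genes. Glul, glutamine synthetase, averaged 66.4 ± 51.5 scaled TPM in DDC hepatocytes and 281 ± 8.04 in untreated hepatocytes, a log2 difference of -2.33 ± 0.53 (SE; limma adjusted p = 0.00573), and Gss, glutathione synthetase, was higher in DDC hepatocytes by 1.58 ± 0.17 (SE; limma adjusted p = 3.22e-05).

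Of 25 tested genes of the ATF4 amino acid stress response, 5 were called higher and 3 lower in reprogrammed cells than in DDC hepatocytes, and 5 higher and 2 lower in DDC than in untreated biliary cells. Over all genes 13.8% were higher and 5.77% lower in the first comparison, and 5.7% and 4.77% in the second. Against hepatocytes, the same list had 6 higher and 6 lower in DDC biliary cells and 5 higher and 8 lower in untreated biliary cells, beside 20.3% and 14.4% of all genes under DDC and 21.6% and 15.6% in untreated mice. Phgdh, the first enzyme of serine synthesis, averaged 17.3 ± 4.38 scaled TPM in reprogrammed cells, 26.9 ± 1.93 in biliary cells and 0.428 ± 0.486 in hepatocytes of DDC mice, against 9.86 ± 2.41 in untreated biliary cells (SD, n = 3 each). It was higher by 3.70 ± 0.25 (SE; limma adjusted p = 1.14e-07) in reprogrammed cells than in DDC hepatocytes and by 1.38 ± 0.25 (SE; limma adjusted p = 0.00129) in DDC than in untreated biliary cells. Nupr1, a stress-induced nuclear protein, averaged 59.4 ± 14.2 scaled TPM in DDC and 3.13 ± 1.99 in untreated biliary cells, higher by 3.94 ± 0.39 (SE; limma adjusted p = 1.29e-05). Other genes of the list ran the other way. Atf5 averaged 103 ± 35.7 scaled TPM in reprogrammed cells and 257 ± 99.6 in DDC hepatocytes, and Cebpb 55.8 ± 14.0 and 132 ± 23.0 (SD, n = 3 each). The list's median log2 difference was -0.15 in reprogrammed cells against DDC hepatocytes, beside 0.06 for all genes, and 0.18 in DDC against untreated biliary cells, beside -0.02.

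Of 29 lysosomal amino acid sensing genes of the mTORC1 pathway, 2 were called higher and 0 lower in reprogrammed cells than in DDC hepatocytes, beside 13.8% and 5.77% of all genes. The GTPase gene Rragd was among them, at 58.5 ± 12.2 scaled TPM in reprogrammed cells and 22.5 ± 24.1 in DDC hepatocytes, and it was higher in DDC than in untreated hepatocytes by 3.82 ± 0.48 (SE; limma adjusted p = 8.93e-05). Among 17 other amino acid and peptide carriers, 1 was called higher and 7 lower in untreated biliary cells than in hepatocytes, where 21.6% and 15.6% of all genes were. The peptide carrier Slc15a2 was higher, at 19.7 ± 4.57 scaled TPM in biliary cells and 0.33 ± 0.447 in hepatocytes of untreated mice, while the mitochondrial ornithine carrier Slc25a15 was lower, with a log2 difference of -2.34 ± 0.23 (SE; limma adjusted p = 1.29e-06). In DDC against untreated biliary cells the aromatic amino acid carrier Slc16a10 was lower, with a log2 difference of -1.77 ± 0.21 (SE; limma adjusted p = 5.34e-05).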

How the data were processed

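RNA of sorted liver cells was sequenced in 15 libraries, and the deposited TPM per gene were made by the authors with Salmon on mm10, per the submitters' processing notes. The Salmon version, annotation and strand setting were not given in the sources used here, and TPM keeps no depth, so no counting interval can be given. All columns were matched to a sample by name (0 left over).

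Genes with at least 1 TPM in at least 3 libraries were kept (13905 of 24493). The scale factor of a library was its median ratio, over 11924 genes above 0 throughout, to each gene's geometric mean across libraries. A single fit of the 5 groups to log2(scaled TPM + 1) was made with limma 3.58.1 in R 4.3.3, letting the variance follow the mean level (trend) with 10 residual degrees of freedom, and p-values were adjusted over all genes kept in each of 7 comparisons. The fit was tested on simulated data with few changed genes, equally many raised and lowered, and independent noise. In the real data far more genes differed between cell types and some same-numbered libraries deviated together. The simulation therefore cannot show how well the scaling or the unpaired fit works here. Figures and sequences were handled with Python 3.11.15 and matplotlib 3.10.9, and positions are from GENCODE M21 (GRCm38).

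Called members that average 10 scaled TPM or more in their higher group are given by library, other called members and abundant uncalled ones by group means, and list genes named are examples of those called at that level. The levels of Slc7a5 by library, of Slc38a9 and of Slc7a11 were added after their values were seen. The members and gene lists were chosen with earlier results of these data known. Alternatives were the deposited TPM unscaled, quantile normalization, pseudocounts of 0.1 and 5, no filter or a filter at 5 TPM, a fit without the trend or of the compared groups only, the adjusted p alone, the replicate number as a block, and each library left out in turn. Same-numbered libraries deviated together from their group means in reprogrammed cells and DDC hepatocytes (r = 0.136 to 0.448 across genes), reprogrammed and DDC biliary cells (0.208 to 0.456) and the untreated groups (0.15 to 0.236). For DDC biliary cells and DDC hepatocytes r was 0.0438 to 0.318. The labels do not say that the cells came from the same animals. The main fit, its calls and the exact tests therefore used no pairing, and the replicate block was an alternative run for every comparison. Some single genes are not reported here.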

Additional observations from a re-analysis of the deposited data

Results flagged for a closer look

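The DDC response of 5 members differed between biliary cells and hepatocytes by the interaction term of the limma fit, given as the biliary minus the hepatocyte response on the log2 scale. It was 3.19 for Slc7a5 (adjusted p = 8.01e-05), 1.52 for Slc38a2 (adjusted p = 0.0196) and 1.18 for Slc7a6 (adjusted p = 0.00837). For Slc6a8 it was -1.46 (adjusted p = 0.00089) and for Slc7a4 -1.03 (adjusted p = 0.0393). The Slc7a6 call depends on the added 1, since untreated hepatocytes were listed at 0, and with 0.1 added the difference was 0.38 (limma adjusted p = 0.822). With quantile normalization Slc7a5 alone of the 5 stayed called. Slc7a4 kept its call in few of the fits that left out 1 library, as given above.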

How the results depend on the processing

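Of 72 calls of a member in a comparison, 24 held under every alternative, and over all alternatives 1039 of 1175 repeats kept the call, 134 lost it and 2 turned direction. Those 2 were Slc1a5 (-0.10) and Slc43a3 (-0.043) in untreated biliary cells against hepatocytes with quantile normalization. Counts that moved by over 1.5 times follow as members called, and their cause was not tested. Counts over all genes moved as well in several of these settings. With the adjusted p alone, reprogrammed cells against DDC hepatocytes had 3762 higher and 2862 lower, in place of 1920 and 802. A pseudocount of 5 gave 859 and 630 there. The compared groups alone gave 2 and 4 against DDC biliary cells, in place of 385 and 103. For the interaction, quantile normalization moved them less, to 432 and 599 from 483 and 690. For reprogrammed cells against DDC hepatocytes, unscaled TPM gave 12 higher and 0 lower, quantile normalization 4 higher, a pseudocount of 5 gave 2 higher, the compared groups alone 3 lower and the adjusted p alone 10 lower. Against DDC biliary cells, unscaled TPM gave 2 lower, quantile normalization 1 lower, a pseudocount of 0.1 gave 1 lower, the adjusted p alone 2 lower, no filter 1 higher and the compared groups alone 0 higher. For untreated biliary cells against hepatocytes, unscaled TPM gave 13 higher and 4 lower and a pseudocount of 5 gave 4 higher. For DDC biliary cells against hepatocytes these were 15, 6 and 5. For DDC against untreated hepatocytes, pseudocounts of 0.1 and 5 gave 7 and 1 higher, and the adjusted p alone 7 higher and 5 lower. For DDC against untreated biliary cells, a pseudocount of 5 gave 1 higher and the adjusted p alone 9 higher. For the interaction, unscaled TPM, no filter and the compared groups alone gave 1 lower, quantile normalization 1 higher and 0 lower, and a pseudocount of 5 gave 0 lower.

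Leaving out 1 library gave 5 to 8 higher and 4 to 7 lower in reprogrammed cells against DDC hepatocytes, 0 to 6 and 0 to 1 against DDC biliary cells, 7 to 8 and 12 to 13 in untreated and 9 to 10 and 9 to 10 in DDC biliary cells against hepatocytes, 3 to 5 and 1 to 3 in hepatocytes under DDC, 3 to 6 and 0 to 2 in biliary cells under DDC, and 2 to 4 and 1 to 2 for the interaction. Over all genes it gave 1716 to 2202 higher and 536 to 1101 lower in reprogrammed cells against DDC hepatocytes. Against DDC biliary cells it gave 56 to 626 and 40 to 206. Biliary cells against hepatocytes had 2903 to 3045 and 2069 to 2226 in untreated mice. Under DDC they had 2670 to 3007 and 1836 to 2141. Against untreated cells, DDC hepatocytes had 839 to 1034 and 536 to 702, and DDC biliary cells 691 to 870 and 507 to 786. The interaction gave 398 to 528 and 528 to 728. With the replicate block, 4 members in place of 2 were called higher in reprogrammed than in DDC biliary cells. Over all genes 568 in place of 385 were called higher there. The block removed none of the 72 calls. Depth is unknown, so values below 1 TPM are read only as low.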
